A study of Homo sapiens
Rattus norvegicus and Homo sapiens with 10 samples.

Results

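The genes described here are HSF1, HSF2, HSP90AA1, HSP90AB1, AHSA1, PTGES3, CDC37, STIP1, CHORDC1 and BAG3. They comprise 2 heat shock factors, the 2 cytosolic HSP90 chaperones and 6 proteins that work with HSP90 or with its partner HSP70. They were chosen by gene symbol, and 10 of the 62754 genes in the table carried these symbols. Their RNA was measured by sequencing in U251N, a human glioblastoma line, grafted into the brains of adult female athymic RNU/RNU rats, a strain without normal T cells. The 3 recurrent tumours had regrown after laser interstitial thermal therapy with the Visualase system, which heats tissue through a laser fibre, here under diffusion-weighted imaging until the ablation reached the tumour margin. The 3 primary tumours were grafts of the same cells that were not ablated. The 3 tumour-free controls were 1 brain in which the graft failed (replicate 1) and 2 procedural controls (replicates 2 and 3). The remaining library was 1 untreated culture of the line, which the submitters set outside the experiment. All grafts thus come from 1 cell line, the culture has no replicate, and the time from ablation to sampling was not given in the sources used here. The labels do not state that each library had its own animal, so the p-values measure the spread between these libraries, which may in part be technical.

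The tumour libraries held 20321590 to 39714714 estimated counts, the controls 1358753 to 4158124, and the culture 65058642. Structural small RNA genes took 7.03% to 13.4% of counts in recurrent tumours, 6.40% to 14.5% in primary tumours, 31.7% to 92.6% in controls and 6.80% in the culture. Graft reads, as the labels give them, made up 29.44% to 42.67% in recurrent tumours, 42.52% to 64.4% in primary tumours and 0.33%, 0.55% and 4.9% in control replicates 1, 2 and 3. Control replicate 3 therefore stood apart. The summed level of 8 markers of U251 cells was 10777 CPM there, within the 9439 to 11693 CPM of the tumours, while control replicates 1 and 2 had 1328 and 6045 CPM and the culture 10748 CPM. Results that use the controls are given with and without that library. Among the tumours, primary replicate 2 had the lowest RNA integrity number (7.8, with the other 5 at 8.1 to 8.9), and structural small RNA took its largest share there. Of the 6 microglial and macrophage markers, 4 had no count in any tumour. The test of recurrent against primary tumours covered 5 of 9 markers of host neurons and 4 of 6 of oligodendrocytes. It also covered 1 of 6 markers of microglia and macrophages, 1 of 4 of endothelium and 4 of 6 of astrocytes. None of these markers passed, but only 1 of all 15928 tested genes did, so equal host content is not shown. The summed level of 6 astrocyte markers, some of which glioblastoma cells share, was 722 to 893 CPM in recurrent and 1056 to 1202 CPM in primary tumours, without overlap. Its part in the results was not tested.

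HSP90 is an abundant chaperone that works as a dimer, burns ATP and finishes the folding of kinases, steroid receptors and other signalling proteins. Co-chaperones bring it clients, set the speed of its cycle and hand proteins over from HSP70. HSF1 is the main transcription factor of the heat shock response. In unstressed cells it is kept inactive in part by chaperones, and after heat or protein damage it forms trimers, enters the nucleus and binds heat shock elements in the promoters of chaperone genes, among them HSP90AA1. Many growth-promoting kinases and receptors of glioblastoma are HSP90 clients.

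The HSP90 pair has similar coding sequences, so their likeness was examined for the division of reads, and the relevant stretches are shown. In GENCODE 29 transcripts on GRCh38, the coding sequence of HSP90AA1 was 2199 bases long and that of HSP90AB1 2175 bases, and 76.5% of 2171 aligned base pairs were identical. The longest identical run was 23 bases, and no stretch of 31 bases was shared. The most alike stretch of 90 bases had 79 identical and 11 differing bases, which are in capitals below, at chr14:102085867-102085956 on the minus strand for HSP90AA1 and chr6:44249545-44249725 on the plus strand, across a splice junction, for HSP90AB1.
HSP90AA1: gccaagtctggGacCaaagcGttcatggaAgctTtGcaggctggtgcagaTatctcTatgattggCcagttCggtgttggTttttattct
HSP90AB1: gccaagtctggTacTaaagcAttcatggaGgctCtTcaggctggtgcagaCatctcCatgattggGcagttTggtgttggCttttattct
The coding ends are shown because they encode the tail motif that STIP1 and other co-chaperones with tetratricopeptide repeats bind. Capitals mark the last 5 codons and the stop codon, at chr14:102081712-102081771 (minus strand) and chr6:44253539-44253598 (plus strand).
HSP90AA1: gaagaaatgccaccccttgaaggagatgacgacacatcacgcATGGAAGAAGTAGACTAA
HSP90AB1: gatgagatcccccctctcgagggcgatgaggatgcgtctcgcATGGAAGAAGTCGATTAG

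Processed pseudogenes could also take reads. Of all 100-base windows of the principal transcript, 2.23% in HSP90AA1, 1.59% in HSP90AB1, 3.40% in PTGES3, 2.47% in CHORDC1 and 0.898% in HSF2 also occurred in a transcript of another gene, and none in the other 5 genes. The pseudogene with the most reads in the tumours, HSP90AA2P, had few beside its parent gene, at 78.3, 134 and 103 counts in recurrent tumours and 109, 75.3 and 177 in primary tumours. Adding the counts of named pseudogenes left each of the 10 genes on the same side of the threshold in every comparison.

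Recurrent tumours were compared with primary tumours to ask whether the heat shock factor and HSP90 system differed between tumours that had regrown after heating and tumours that had not been heated. None of the 10 genes passed the test, at edgeR adjusted p-values of 0.454 to 0.9997, and 1 of the 15928 tested genes did, lower in recurrent tumours (0.00628%). DESeq2, which called 0.735% of all genes, and limma-voom, which called 0%, called none of the 10. At an unadjusted p below 0.05, 1 of the 10 genes stood out, CHORDC1, against 9.28% of all tested genes in either direction. STIP1, CHORDC1 and CDC37 lay higher in every recurrent tumour than in any primary tumour, 3 of 10 genes against 7.94% of all tested genes, and none lay lower throughout, against 7.42%. The log2 fold changes were positive for 7 of 10 genes (49.1% of all genes) and negative for 3, with a median of 0.04 beside -0.0065 over all tested genes. Levels in this comparison are TMM-scaled CPM, counts put on a common library size with a factor that aligns the libraries on the bulk of their genes. In bulk RNA, fewer cells that express a gene and less RNA per cell cannot be told apart.

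The heat shock factors, at the top of the pathway, were expressed in all 6 tumours and did not differ beyond their spread. HSF1 (GRCh38 chromosome 8, 144291591 to 144314722, plus strand), the main inducer of chaperone genes, had 64.5, 81.4 and 62.2 CPM in recurrent tumours, against 73.9, 74.2 and 79.7 CPM in primary tumours. The groups overlapped, since recurrent replicate 2 was the highest of all 6 tumours and the other recurrent tumours were the lowest. Its log2 fold change was -0.13 ± 0.14 (SE, n = 3 each, edgeR adjusted p = 0.777). Over the 6 tumours, its log2 CPM had a Pearson correlation of 0.77 with the graft percentage, and with that percentage as a term in the fit its log2 fold change was 0.038. HSF2 (chromosome 6, 122399546 to 122433119, plus strand), a relative that can form mixed trimers with HSF1, had 13.4, 14.6 and 11.9 CPM in recurrent tumours, against 14.9, 13.5 and 12.1 CPM in primary tumours. These values interleaved, with a log2 fold change of -0.02 ± 0.19 (SE, n = 3 each, edgeR adjusted p = 0.980). The transcript of HSF1 overlaps exons of DGAT1 on the opposite strand, and the libraries were strand-specific per the labels.

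The chaperones themselves had nearly the same mean level in the 2 kinds of tumour. HSP90AA1 (chromosome 14, 102080738 to 102139699, minus strand), the stress-inducible form, had 3734, 3480 and 3570 CPM in recurrent tumours, against 4075, 2922 and 3783 CPM in primary tumours. The primary tumours spread around the recurrent ones on either side, and the means were 3595 ± 129 CPM in recurrent and 3593 ± 600 CPM in primary tumours (SD, n = 3 each). The log2 fold change was 0.00059 ± 0.27 (SE, edgeR adjusted p = 0.9997). HSP90AB1 (chromosome 6, 44246166 to 44253888, plus strand), the constitutive form, had 2712, 2720 and 2624 CPM in recurrent tumours, against 2685, 2379 and 2809 CPM in primary tumours. Its groups also overlapped, with a log2 fold change of 0.03 ± 0.23 (SE, n = 3 each, edgeR adjusted p = 0.970). The low primary value of each gene was primary replicate 2, the tumour with the lowest RNA integrity number. That tumour was the lowest of the 6 for 7 of the 10 genes, including STIP1, CHORDC1 and CDC37. Without it these 3 genes kept groups that did not overlap, and HSP90AA1 lay lower in every recurrent tumour than in any remaining primary tumour. Leaving out another tumour gave 0 or 1 gene lower throughout, HSF1 or PTGES3. These checks were added after seeing the data. Over the 6 tumours, the Pearson correlation of log2 CPM with the RNA integrity number was 0.87 for HSP90AA1 and 0.88 for HSP90AB1, given as a description of 6 points. Without primary replicate 2 the log2 fold changes were -0.13 for HSP90AA1 and -0.04 for HSP90AB1, neither past the test. Its part in the spread was not tested.

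**Figure D1:**
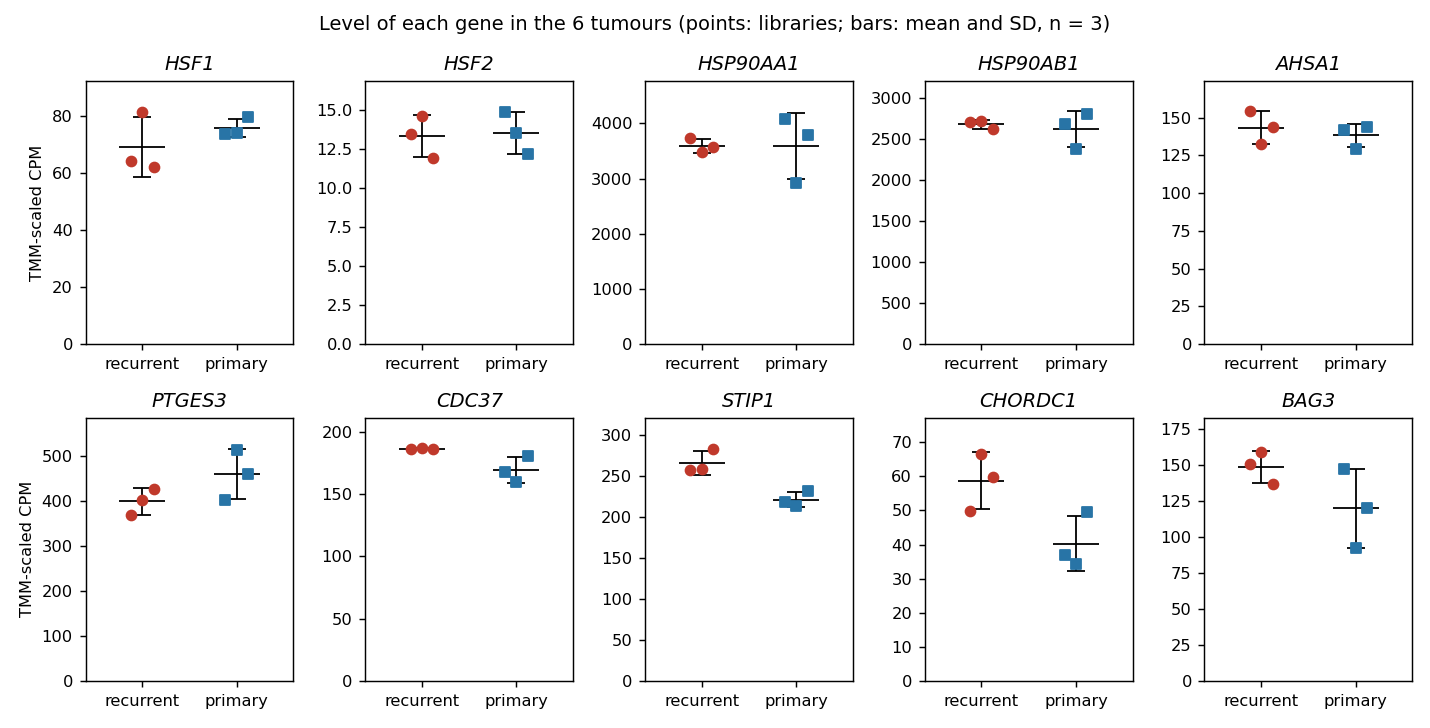
Level of each of the 10 genes in recurrent (red circles, left) and primary (blue squares, right) tumours, in TMM-scaled CPM on axes that start at 0, with bars for the mean and SD of 3 libraries. STIP1, CHORDC1 and CDC37 show no overlap between the groups, and primary replicate 2 (middle square) is the lowest tumour for 7 of the 10 genes, all but HSF1, HSF2 and PTGES3.

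Of the co-chaperones that act on the HSP90 cycle, none passed the test. AHSA1 (chromosome 14, 77457870 to 77469474, plus strand), which speeds up ATP hydrolysis, had 154, 132 and 144 CPM in recurrent tumours, against 142, 129.6 and 144 CPM in primary tumours. The groups overlapped and the log2 fold change was 0.05 ± 0.12 (SE, n = 3 each, edgeR adjusted p = 0.912). PTGES3 (chromosome 12, 56663341 to 56688408, minus strand), known as p23, which slows that step and holds the closed HSP90 dimer, had 368, 403 and 426 CPM in recurrent tumours, against 403, 514 and 461 CPM in primary tumours. Recurrent tumours were on the low side with some overlap, at a log2 fold change of -0.20 ± 0.15 (SE, n = 3 each, edgeR adjusted p = 0.675). PTGES3 was the only one of the 10 genes for which primary replicate 2 was the highest tumour.

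CDC37 (chromosome 19, 10391134 to 10420121, minus strand), which delivers kinases to HSP90, had 186, 187 and 186 CPM in recurrent tumours, against 167.7, 160 and 181 CPM in primary tumours. The recurrent values lay within a few CPM of each other and above all primary values. The means were 187 ± 0.681 CPM in recurrent and 169 ± 10.4 CPM in primary tumours (SD, n = 3 each), and the log2 fold change was 0.14 ± 0.12 (SE, edgeR adjusted p = 0.718).

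STIP1 (chromosome 11, 64185272 to 64204543, plus strand), also called HOP, the adaptor that bridges HSP70 and HSP90, had 257, 259 and 283 CPM in recurrent tumours, against 218, 214 and 232 CPM in primary tumours. All recurrent values exceeded all primary values. It averaged 266 ± 14.7 CPM in recurrent and 221 ± 9.15 CPM in primary tumours (SD, n = 3 each), with a log2 fold change of 0.27 ± 0.13 (SE, unadjusted p = 0.0564, edgeR adjusted p = 0.550).

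CHORDC1 (chromosome 11, 90201160 to 90223364, minus strand), also called morgana, an HSP90-binding protein with zinc-binding CHORD domains, had the largest fold change of the 10 genes. It had 49.9, 66.6 and 59.8 CPM in recurrent tumours, against 37.0, 34.2 and 49.4 CPM in primary tumours. The groups did not overlap, but the lowest recurrent and the highest primary tumour nearly met. Its log2 fold change of 0.55 ± 0.17 (SE, n = 3 each) had an unadjusted p of 0.00997 and an edgeR adjusted p of 0.454. Leaving out any 1 tumour gave 0.44 to 0.72, at edgeR adjusted p-values of 0.226 to 0.845. With the graft percentage as a term in the fit, its log2 fold change was 0.93 (edgeR adjusted p = 0.571). When the single recurrent tumour whose library name has the prefix of the primary tumours was set against them, it was 0.30, a value without a test. Without a scaling factor between libraries, STIP1 alone of the 10 genes kept groups that did not overlap.

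BAG3 (chromosome 10, 119651370 to 119677819, plus strand), which binds HSP70 and sends its clients to autophagy, is a classical target of HSF1. It had 151, 159 and 137 CPM in recurrent tumours, against 147, 92.8 and 120 CPM in primary tumours. Primary replicate 1 lay among the recurrent values, and primary replicate 2 was the lowest. The means were 149 ± 11.2 CPM in recurrent and 120 ± 27.3 CPM in primary tumours (SD, n = 3 each), and the log2 fold change was 0.31 ± 0.17 (SE, edgeR adjusted p = 0.589). Without primary replicate 1 the change was 0.48, and without primary replicate 2 it was 0.15, neither past the test.

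**Figure D2:**
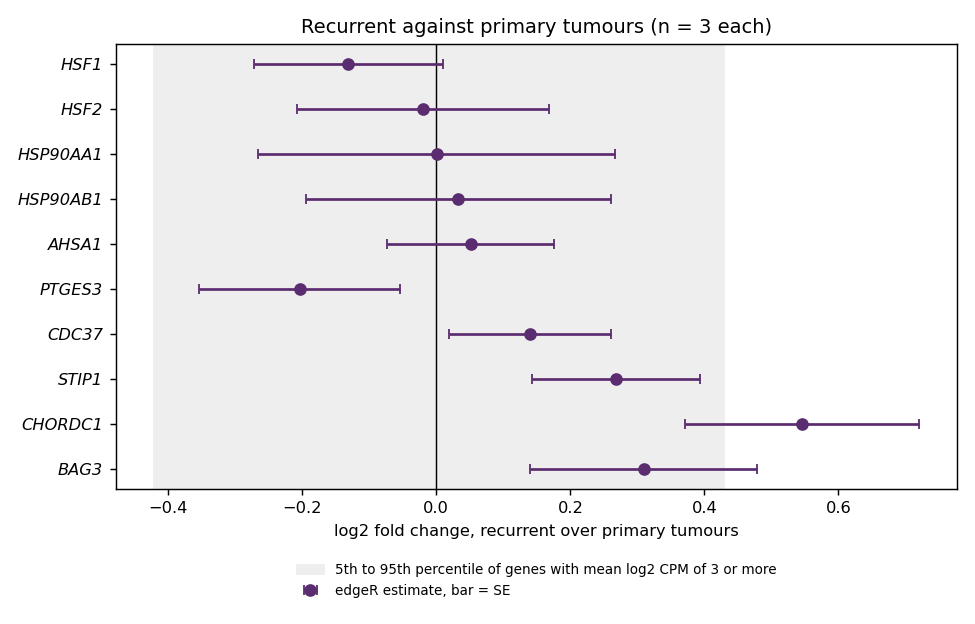
Log2 fold change of recurrent over primary tumours for each gene (point, edgeR, n = 3 each) with its SE, over a grey band from the 5th to the 95th percentile of 10232 genes with a mean log2 CPM of 3 or more (-0.42 to 0.43). CHORDC1, at 0.55, is the only point outside the band, and no gene passed the adjusted test.

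Over the 6 tumours, the coefficient of variation of the 10 genes ran from 5.56% for HSP90AB1 to 25.4% for CHORDC1. Of the 45 pairs of genes, 26 had a positive Pearson correlation of log2 CPM over the 6 tumours, and 4 exceeded 0.8. These were CHORDC1 with CDC37 (0.93), STIP1 with CHORDC1 (0.88), STIP1 with CDC37 (0.87) and HSP90AA1 with HSP90AB1 (0.84). The most negative pair was BAG3 with PTGES3, at -0.94. All pairs share the same 6 libraries and their depth, so these values describe the tumours and carry no test. By the same measure, among 5732 genes with a mean log2 CPM of at least 5, the patterns most like that of HSP90AA1 were those of TNK2 (0.993), NFE2L1 (0.989) and CMTR1 (0.989). Among the nearest to HSP90AB1 were ATXN1 (0.995) and PIK3R1 (0.993), and among the nearest to HSF1 were ALDH18A1 (0.986) and SNX2 (0.956). The nearest to BAG3 were ZSCAN29 (0.997), SFSWAP (0.988) and HNRNPUL2-BSCL2 (0.987). Picking the highest among 5732 genes over 6 points favours high values, so these likenesses also carry no test and do not show shared regulation.

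Ratios within a library do not depend on scaling between libraries, so the balance of the HSP90 pair and of the heat shock factors was also compared. HSP90AA1 made up 57.9%, 56.1% and 57.6% of the summed counts of the pair in recurrent tumours, against 60.3%, 55.1% and 57.4% in primary tumours. The difference of the means was -0.362 percentage points (exact two-sided permutation p = 1, adjusted over 2 ratios 1). The log2 ratio of HSF1 to HSF2 counts was 2.26, 2.48 and 2.39 in recurrent tumours, against 2.31, 2.45 and 2.71 in primary tumours, a difference of -0.12 (exact two-sided permutation p = 0.5, adjusted over 2 ratios 1). With 3 tumours against 3 this test cannot go below 0.1. In the culture the HSP90AA1 share was 54.6% (Wilson 95% interval 54.4% to 54.8%), below the share in every tumour, and the log2 HSF1 to HSF2 ratio was 1.15, below the 2.26 to 2.71 of the tumours. The control shares were 67.7%, 57.4% and 52.4% in replicates 1, 2 and 3.

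**Figure D3:**
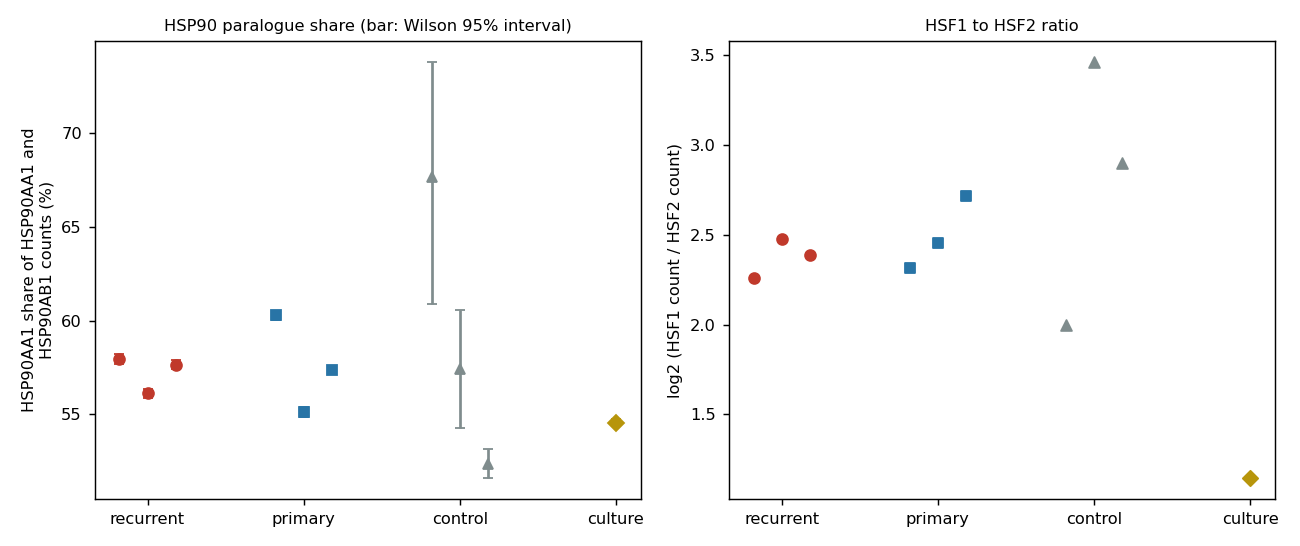
Left, percentage of HSP90AA1 in the summed HSP90AA1 and HSP90AB1 counts of each library, with Wilson 95% intervals for counting error; right, log2 ratio of HSF1 to HSF2 counts. Recurrent and primary tumours overlap in each panel, and the culture lies at 1.15 in the right panel, below all tumours.

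The tumours were next set beside the culture of the same line. Levels here and below are CPM of counts outside structural small RNA genes, since these genes fill most of 2 control libraries. With 1 culture there is no test, and a gene was called where the mean of the 6 tumours and the culture were at least 2-fold apart and the culture lay outside the range of the tumours. The culture lay below all 6 tumours for 8 of the 10 genes (24.1% of the 14668 genes compared), above them for HSF2 (31.2%) and within them for BAG3. Only HSP90AA1 was called, as higher in tumours (5.79% of genes), and no gene was called lower (10.2%). The median log2 difference of the 10 genes was 0.63, beside -0.03 over all genes compared. Growth in the brain, the making of a single culture library and host reads, if any entered the counts, cannot be told apart here. The mean of the 3 controls also lay above the culture for HSP90AA1, HSP90AB1, CHORDC1, AHSA1 and CDC37. It lay below the culture for HSF1, HSF2, STIP1, BAG3 and PTGES3. HSP90AA1 had 1337, 3103 and 2961 CPM in control replicates 1, 2 and 3. Replicates 1 and 2 rest on few counts, and replicate 3 held U251 marker RNA at tumour levels.

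HSP90AA1 had 4213, 3887 and 3989 CPM in recurrent tumours and 4607, 3200 and 4148 CPM in primary tumours, against 1972 CPM in the culture (exact Poisson 95% interval 1961 to 1983, counting error only). Every tumour exceeded the culture, and the mean was 2.03-fold higher. That value sits at the 2-fold limit: without primary replicate 1, or per library total, HSP90AA1 was no longer called. HSP90AB1 averaged 2958 ± 180 CPM in tumours (SD, n = 6) against 1643 CPM in the culture, 1.80-fold higher, with a lowest tumour at 2606 CPM.

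CHORDC1 averaged 55.2 ± 14.1 CPM in tumours (range 37.5 to 74.4) against 28.7 CPM in the culture, 1.92-fold higher. In recurrent tumours alone, at 65.8 ± 9.09 CPM (SD, n = 3), it passed the 2-fold limit, as it also did without primary replicate 1 or 2. AHSA1 averaged 157 ± 11.2 CPM in tumours against 84.7 CPM in the culture, 1.85-fold higher. The other co-chaperones differed less: STIP1 was 1.56-fold, CDC37 1.53-fold and PTGES3 1.17-fold higher in the mean of the tumours.

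HSF1 averaged 80.9 ± 8.33 CPM in tumours (SD, n = 6) against 63.4 CPM in the culture, 1.28-fold higher, and its lowest tumour, at 69.5 CPM, still exceeded the culture's interval of 61.4 to 65.4 CPM. HSF2 went the other way. It had 15.2, 16.3 and 13.3 CPM in recurrent tumours and 16.8, 14.8 and 13.3 CPM in primary tumours, against 28.6 CPM in the culture (exact Poisson 95% interval 27.3 to 30.03), which was 1.91-fold the mean of the tumours. BAG3 ranged from 102 to 177 CPM in tumours, around the 164 CPM of the culture. The 10 genes together took 0.868%, 0.838% and 0.838% of counts outside structural RNA in recurrent tumours and 0.900%, 0.716% and 0.863% in primary tumours, against 0.470% in the culture.

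**Figure D4:**
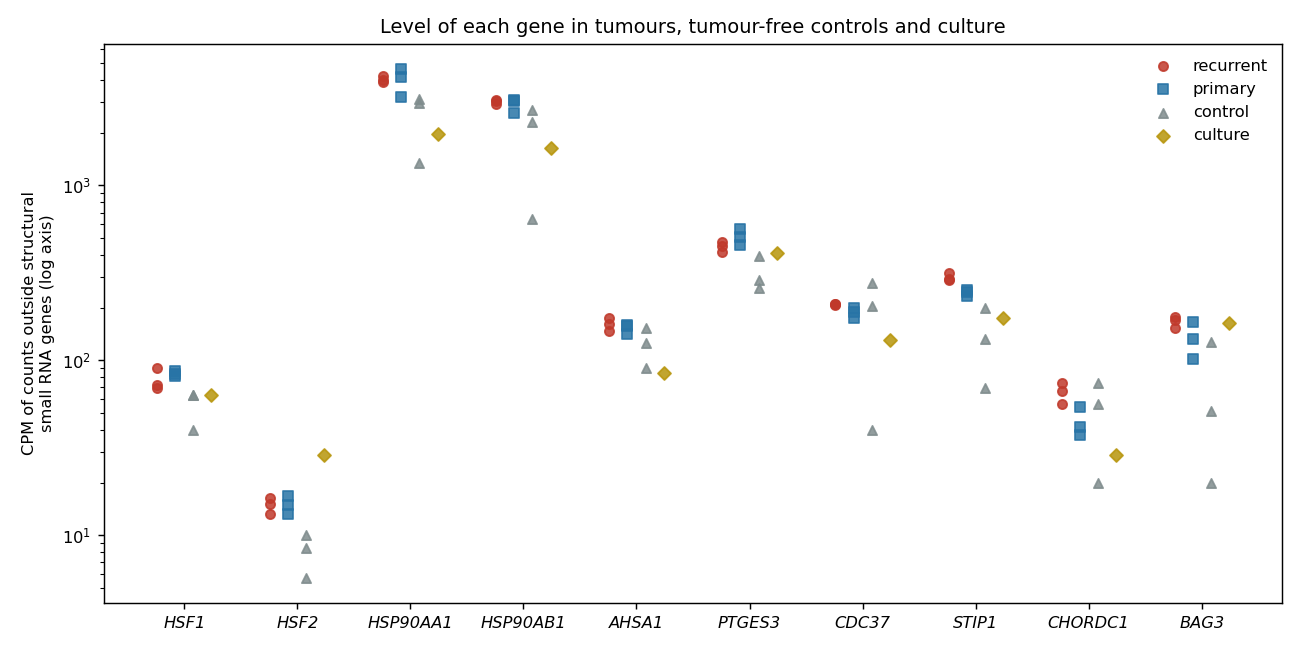
Level of each gene in every library, in CPM of counts outside structural small RNA genes on a log axis, by group (recurrent, primary, control, culture from left to right). The culture (diamond) lies below all 6 tumours for 8 genes, above them for HSF2 and within them for BAG3, and control values rest on few counts in replicates 1 and 2.

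Levels of different genes can be compared only per length, here CPM per kilobase of the principal transcript. The HSP90 pair led in every kind of library, with HSP90AA1 at 1193 ± 49.3 in recurrent and 1179 ± 212 in primary tumours (SD, n = 3 each), against 584 in the culture. HSP90AB1 was at 1126 ± 25.6 in recurrent and 1087 ± 97.9 in primary tumours, against 614 in the culture, so that HSP90AA1 had the higher mean in the tumours and HSP90AB1 the higher value in the culture. Both genes were measured in the same libraries, so the spread between tumours does not measure the difference within the pair, which was not tested. PTGES3 followed at 233 ± 15.9 in recurrent and 265 ± 28.0 in primary tumours, against 213 in the culture. STIP1, CDC37 and AHSA1 stood close together, at 136, 130 and 115 in recurrent tumours and at 112, 117 and 109 in primary tumours, against 79.4, 80.8 and 60.4 in the culture. BAG3 had 64.9 in recurrent and 51.9 in primary tumours, against 63.9 in the culture. HSF1 had 36.3 in recurrent and 39.3 in primary tumours, against 29.6 in the culture. CHORDC1 had 24.8 in recurrent and 16.8 in primary tumours, against 10.8 in the culture, and HSF2 5.86 in recurrent and 5.88 in primary tumours, against 11.2. HSF2 was thus the lowest of the 10 in the tumours and stood just above CHORDC1 in the culture.

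The controls, labelled tumour-free, were then compared with the tumours. Control replicate 3 held U251 marker RNA at tumour levels, so its counts cannot be read as signal without graft cells. In control replicates 1 and 2 the higher raw count of each gene was 0.375% to 1.602% of that of the lowest tumour. In control replicate 3 the counts were 8.99% to 19.7% of the lowest tumour. These raw percentages also carry depth and do not show near absence. Counts outside structural RNA were 100181, 174353 and 2840019 in control replicates 1, 2 and 3, and at least 17601101 in the tumours. After scaling, edgeR found none of the 10 genes different between the 6 tumours and the 3 controls, while 3.97% of 15801 genes passed, 0.468% as higher and 3.5% as lower in tumours. DESeq2 also called none, and 2 of the 10, STIP1 and BAG3, had an unadjusted p below 0.05, against 16.4% of all genes. Without control replicate 3, BAG3 alone passed, with a log2 fold change of 1.54 (edgeR adjusted p = 0.0463) that rests on controls with 2 and 9 counts, where 3.06% of 16588 genes passed as higher in tumours. These fold changes depend on scaling: the median over all genes was 0.29, and it was 0.03 by DESeq2, 0.41 without TMM factors or with structural genes kept, 0.79 without the low-count filter, and 0.12 and 1.05 without control replicates 1 and 3.

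BAG3 had 170, 177 and 153 CPM in recurrent tumours and 167, 102 and 132 CPM in primary tumours, against 20.0, 51.6 and 127 CPM in control replicates 1, 2 and 3, which rest on 2, 9 and 362 counts. Control replicate 3, the one with U251 marker levels, lay among the tumours, and the other controls lay below them. With all 3 controls its log2 fold change was 0.84 ± 0.36 (SE, edgeR adjusted p = 0.265). STIP1 had a lowest tumour value of 234 CPM, against 69.9, 132 and 200 CPM in the controls, a log2 fold change of 0.76 ± 0.27 (SE, edgeR adjusted p = 0.186). No control reached the tumours for STIP1, where control replicates 1 and 2 rest on 7 and 23 counts. The same held for HSF1, HSF2, HSP90AA1 and PTGES3, and the share of all genes with this pattern was not counted. AHSA1 in control replicate 3, at 153 CPM, lay inside the tumours' range of 142 to 174 CPM. The values of control replicates 1 and 2 for HSF2 rest on 1 count each, and those of control replicate 1 for BAG3 and CHORDC1 on 2 counts each, all under the floor of 3 counts. The fitted fold changes of these genes therefore depend on few reads and are no bound. HSP90AA1 had 1337, 3103 and 2961 CPM and HSP90AB1 639, 2300 and 2693 CPM in control replicates 1, 2 and 3, so that HSP90AB1 in replicate 3 lay inside the tumours' range of 2606 to 3080 CPM. CHORDC1 and CDC37 each had a control inside or above the tumours' range, at 74.6 and 275 CPM in control replicate 2 (13 and 48 counts).

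Genes around the 10 were followed in 7 lists: other heat shock factors and their binding proteins, other HSP90 paralogues, other co-chaperones, the rest of the BAG family, other heat shock genes bound by HSF1, HSP90 clients and regulators of HSF1. They hold 94 distinct genes, of which 92 were tested. In recurrent against primary tumours edgeR called none of them, and their median log2 fold change was 0.04, beside -0.0065 over all tested genes. At an unadjusted p below 0.05, 6 were higher (5.08% of all tested genes) and 4 lower (4.2%). DESeq2 called 1, PDGFRA, against 0.735% of all tested genes. Of all tested genes 49.1% had a positive log2 fold change, the share to set beside the counts of signs in each list below.

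Neither of the other HSP90 paralogues passed the test. HSP90B1, the form of the endoplasmic reticulum, averaged 1439 ± 22.7 CPM in recurrent and 1552 ± 292 CPM in primary tumours, and TRAP1, the mitochondrial form, 77.0 ± 1.69 CPM in recurrent and 71.3 ± 3.33 CPM in primary tumours (SD, n = 3 each, here and for the list genes that follow). Of 28 other co-chaperones, 12 had positive and 16 negative log2 fold changes, with a median of -0.02. The most abundant were ST13, the HSP70-interacting protein HIP, at 333 ± 27.5 CPM in recurrent and 362 ± 21.0 CPM in primary tumours, and NUDC, which joins HSP90 to the dynein pathway, at 279 ± 14.1 CPM in recurrent and 264 ± 14.4 CPM in primary tumours. CACYBP followed at 143 ± 11.3 CPM in recurrent and 155 ± 23.0 CPM in primary tumours. The 5 other BAG genes had a median of -0.04, and BAG6, the most abundant, averaged 172 ± 9.44 CPM in recurrent and 165 ± 11.1 CPM in primary tumours. BAG1 had 65.8 ± 7.34 CPM in recurrent and 67.7 ± 15.1 CPM in primary tumours, and BAG5 69.6 ± 2.64 CPM in recurrent and 63.3 ± 5.05 CPM in primary tumours.

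Among 23 tested heat shock genes bound by HSF1, 11 had positive and 12 negative log2 fold changes and the median was -0.0066. HSPA8, the constitutive HSP70, averaged 2055 ± 250.2 CPM in recurrent and 1849 ± 283 CPM in primary tumours, and the ubiquitin gene UBB 556 ± 58.8 CPM in recurrent and 649 ± 109 CPM in primary tumours. Only HSPA4L, a member of the HSP110 family, had an unadjusted p below 0.05 in this list and was picked out after its values were seen. It had 57.6, 66.6 and 64.8 CPM in recurrent tumours, against 42.7, 42.1 and 49.0 CPM in primary tumours, a log2 fold change of 0.50 ± 0.13 (SE, edgeR adjusted p = 0.373). The groups did not overlap.

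HSP90 clients had 14 positive and 6 negative log2 fold changes among 20 and a median of 0.09. Leaving out each tumour gave medians of 0.02 to 0.15, the lowest without primary replicate 2. Of these 20, 5 lay higher in every recurrent tumour than in any primary tumour (7.94% of all tested genes) and 1 lower (7.42%). At an unadjusted edgeR p below 0.05, 4 were higher (5.08%) and 1 lower (4.2%). The most abundant was HIF1A, the hypoxia factor, at 514 ± 8.93 CPM in recurrent and 527 ± 69.8 CPM in primary tumours. The cell-cycle kinase CDK6 had 283 ± 20.1 CPM in recurrent and 216 ± 49.2 CPM in primary tumours, with 225, 163 and 260 CPM in primary replicates 1, 2 and 3. The kinase AKT1 had 149 ± 15.7 CPM in recurrent and 141 ± 8.15 CPM in primary tumours. The receptor PDGFRA, singled out because DESeq2 called it (log2 fold change 0.69, DESeq2 adjusted p = 0.0213), had 104, 148 and 135 CPM in recurrent tumours, against 73.3, 77.7 and 89.3 CPM in primary tumours. All recurrent values were higher, and edgeR gave 0.69 ± 0.16 (SE, adjusted p = 0.302). The 14 regulators of HSF1 had 11 positive and 3 negative values and a median of 0.09. Leaving out each tumour gave medians of 0.05 to 0.13, again the lowest without primary replicate 2. EEF2, a translation factor, had 2038 ± 66.5 CPM in recurrent and 2045 ± 148 CPM in primary tumours, and the nuclear export receptor XPO1 228 ± 25.2 CPM in recurrent and 212 ± 9.77 CPM in primary tumours. The acetyltransferase CREBBP had 187 ± 18.9 CPM in recurrent and 153 ± 48.2 CPM in primary tumours, with 181, 97.4 and 181 CPM in primary replicates 1, 2 and 3. All 3 tested genes of the heat shock factor list had negative values, HSBP1, a small protein that binds HSF1 trimers, at -0.40 (edgeR adjusted p = 0.534), HSBP1L1 at -1.04 (edgeR adjusted p = 0.565) and HSF4 at -1.15 (edgeR adjusted p = 0.589). HSBP1L1 and HSF4 reached at most 2.19 CPM in any tumour.

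**Figure D5:**
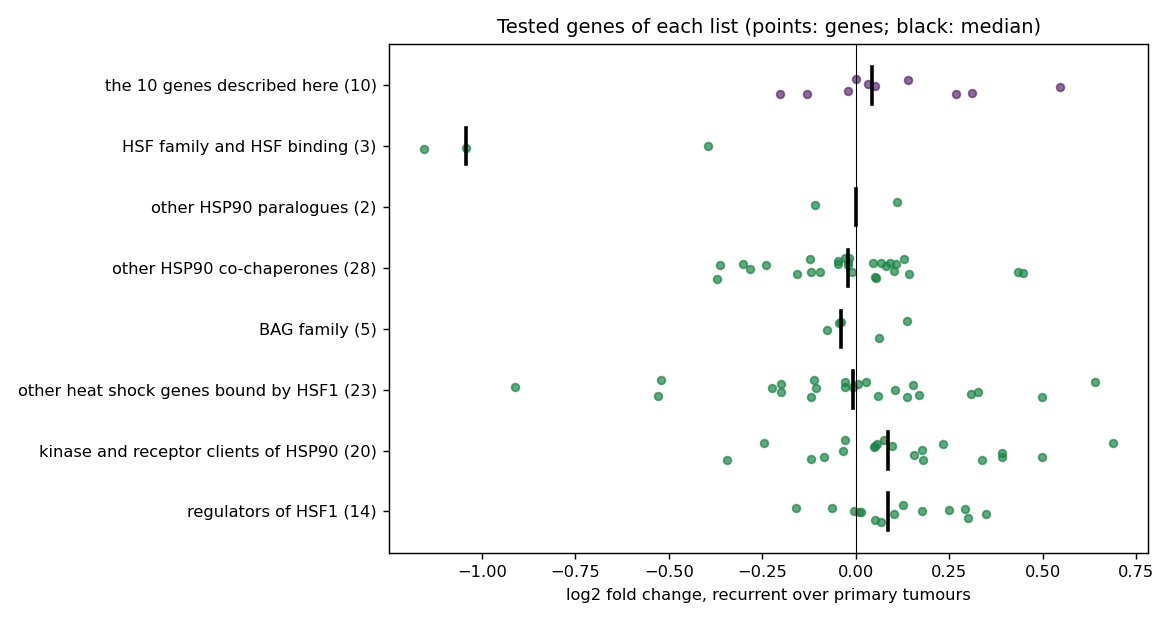
Log2 fold change of recurrent over primary tumours for each tested gene of the 10 described here and of the 7 lists around them (points), with the median of each list (black line) and the number of tested genes in brackets. Medians lie between -0.04 and 0.09 except for the 3 genes of the heat shock factor list, at -1.04, and no point passed the edgeR test.

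Against the culture, 9 of 23 heat shock genes bound by HSF1 were called higher in tumours by the 2-fold rule (5.79% of all genes compared), none lower (10.2%), and the median log2 difference was 0.90, beside -0.03 over all genes compared. HSPA8 averaged 2174 ± 294 CPM in tumours (SD, n = 6) against 775 CPM in the culture, 2.80-fold higher. HSPB1, a small heat shock protein, averaged 485 ± 90.7 CPM in tumours against 189 CPM in the culture, and CRYAB, alpha-B-crystallin, 93.6 ± 33.6 CPM in tumours against 2.21 CPM in the culture. The other 6 were HSPA1B, HSPH1, DNAJA1, SERPINH1, HSPA1L and HSPA6. HSPA1B, at 375 ± 95.4 CPM in tumours against 84.8 CPM in the culture, shares almost all of its sequence with HSPA1A, so the division of reads between them is uncertain. Some controls also exceeded the culture for such genes. In control replicates 1, 2 and 3, HSPA8 had 529, 1079 and 2082 CPM and HSPB1 39.9, 143 and 350 CPM. CRYAB had 0, 40.1 and 165 CPM there. The part of host reads, if any entered the counts, was not tested. The other co-chaperones had 0 of 28 called higher and 1, AHSA2P, called lower, with a median of 0.24. Of the HSP90 clients, PDGFRA, HIF1A and TERT were called lower, and HIF1A averaged 580 ± 49.7 CPM in tumours against 1730 CPM in the culture. HSF4 and HSBP1L1 were called lower, at 1.19 ± 0.783 and 1.59 ± 0.808 CPM in tumours against 4.16 and 4.19 CPM in the culture. In the lists of other HSP90 paralogues, BAG genes and regulators of HSF1 no gene was called in either direction.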

How the data were processed

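The deposited values are estimated counts, made with Salmon for each gene in 10 libraries and left unscaled. The submitters' processing notes name STAR, Salmon 1.10.3 and DESeq2 with GRCh38, and the labels name strand-specific ribodepletion libraries read as pairs. Which xengsort read classes entered the counts was not given in the sources used here. If rat reads entered them, conserved genes could hold host signal.

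From this table, estimated counts were rounded. Recurrent and primary tumours, and tumours and controls, were compared with edgeR 4.0.16 (R 4.3.3) by two-sided quasi-likelihood tests with TMM scaling and the default low-count filter. Benjamini-Hochberg adjustment ran over all genes tested, with a threshold of 0.05. For tumours against controls, 6942 structural small RNA genes, taken by name, were removed first. The SE is the log2 fold change over the root of F. DESeq2 1.42.0 and limma 3.58.1 (voom) were alternatives. The edgeR step was tested on simulated counts. Coordinates (1-based), lengths and sequences come from GENCODE 29. Promoter and protein sequences were not used here.

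All 10 genes were named, with the 3 most abundant genes of each list and the 3 genes most alike in pattern to HSP90AA1, HSP90AB1, HSF1 and BAG3. Some of the genes this rule names are not reported here. These genes and lists were chosen with earlier results of these data known.

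Depth was 20321590 to 39714714 counts per tumour, so counting error is small there. A floor of 3 counts stood at 0.0807 to 0.170 CPM in tumours and 1.06 to 29.9 CPM in controls. Intervals and floors cover counting error only, as the counts carry no correction for copied molecules.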

Additional observations from a re-analysis of the deposited data

How the results depend on the processing

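No paired analysis was possible because replicate numbers were given in the order of the records and tie no tumours together. For recurrent against primary tumours, none of the 10 genes was called under any alternative with a test. Over all genes, 1 was called, 117 by DESeq2, 0 by limma-voom, 28 without the low-count filter, 0 with the graft percentage as a term, and 0 to 32 leaving out each tumour. The sign of HSF1 turned from -0.13 to 0.038 with the graft term. The other turns were in HSF2, HSP90AA1, HSP90AB1 and AHSA1, whose main log2 fold changes were -0.02 to 0.05. HSP90AA1 turned to -0.0087 with structural genes removed and -0.0072 without the filter. Leaving out each tumour turned HSF2 (-0.10 to 0.053), HSP90AA1 (-0.13 to 0.10), HSP90AB1 (-0.035 to 0.083) and AHSA1 (-0.0064 to 0.095). In the other 140 of 150 refits of the 10 genes the direction held. The HSP90AA1 share differed by -1.603 to 0.982 points, leaving out each tumour.

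For tumours against controls, 627 genes were called, 1071 with structural genes kept, 1092 by DESeq2, 962 without the filter, 0 for recurrent and 123 for primary tumours alone, and 154 to 1279 leaving out each control. Of the 10 genes, 0 to 1 were called leaving out each control. Signs turned for CHORDC1 (0.050 without TMM factors, 0.051 for recurrent tumours alone, -0.34 to 0.12 leaving out each control), AHSA1 (-0.050 by DESeq2) and CDC37 (0.048 with structural genes kept, 0.14 without TMM factors, -0.26 to 0.36 leaving out each control). Against the culture, 1 of the 10 genes was called, 0 per library total, 2 for recurrent tumours alone, and 1 to 2 leaving out each tumour. The cause was not tested. In an alternative chosen after seeing the data, the culture lay below every tumour for 7 genes per library total and for 8 under the 10 other settings. Depth limits the controls: replicates 1 and 2 held 1 count each of HSF2.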
